A study of Mus musculus with 6 samples.

Results

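A set of 10 keratin genes was followed here: 5 keratins of simple epithelium (Krt7, Krt8, Krt18, Krt19 and Krt23) and 5 keratins of stratified epithelium (Krt4, Krt5, Krt13, Krt14 and Krt15). They were taken by gene name from the 19938 genes that could be measured, and each of the 10 had a single probe set annotated to it alone. The samples were stomachs of mouse embryos at stage E13.5, 3 from embryos of genotype Nkx3.2Cre;R26-SmoM2 (called SmoM2) and 3 from wild type embryos. SmoM2 encodes a constitutively active Smoothened, the membrane protein that passes on the hedgehog signal. In these embryos the R26 allele was turned on wherever Nkx3.2, a gene of the stomach mesenchyme, had driven Cre. Keratins are made mainly in epithelium and mesothelium. Which cells of these samples carried active SmoM2, and which held keratin RNA, was not tested. Each Affymetrix array measured RNA of all cells of the tissue together, so fewer cells of a type and less RNA per cell cannot be told apart. Since the labels leave the origin of the replicates (embryo, litter or pool) unstated, p-values measure only the spread between these samples, which may be technical.

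Keratins form the intermediate filaments of epithelial cells. Each filament is built from pairs of a type I and a type II keratin, and a keratin without its partner is usually degraded. Simple, single-layered epithelia such as the glandular stomach and gut use mainly Krt8 (type II) with Krt18 or Krt19 (type I), often with Krt7 (type II). Stratified epithelia such as the mouse forestomach and oesophagus use Krt5 with Krt14 or Krt15 in their basal layer and Krt4 with Krt13 in the layers above. The mesothelium that covers the stomach also makes simple keratins.

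The deposited values were log2 RMA signals, and the array medians ran from 8.56 to 8.62. The labels were checked with Hhip, a hedgehog target, which averaged 11.70 ± 0.03 in SmoM2 stomachs and 10.42 ± 0.07 in wild type stomachs (log2 signal, SD, n = 3 each; limma adjusted p = 0.000175). Ptch1, a hedgehog receptor and target, was at a log2 change of 0.48 (adjusted p = 0.0174), and Smo itself at 0.35 (adjusted p = 0.154). Correlation over all probe sets split the arrays into 2 sets that crossed the groups, SmoM2 2 with wild type 1 and 2, and SmoM2 1 and 3 with wild type 3. Xist, the RNA of the inactive X chromosome, had log2 signals of 11.93, 12.37 and 11.43 in the SmoM2 arrays, against 7.11, 11.94 and 11.68 in the wild type arrays, where wild type 1 stood apart. The mean of the Y-linked genes Eif2s3y, Kdm5d and Uty lay between 8.71 and 9.27 in SmoM2 and between 9.07 and 10.37 in wild type. Results that rest on these arrays are given with and without them below.

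The promoters of the 3 keratins that passed the test are shown because the genes moved together and lie in a single keratin cluster on chromosome 15. Krt18 is the type I keratin that lies there beside its type II partner Krt8. The chromosome is not particular to the 3 genes, since Krt4 and Krt5 also lie on it and did not pass (log2 changes 0.15 and 0.05). Sequences are from RefSeq (build GRCm38.p6), 250 bases before to 30 after the annotated start, 5′ to 3′ on the gene's strand, with capitals for matches to TATAAA (the TATA box) and to GGGCGG (the GC box bound by Sp1), on either strand. Krt7 is at chr15:101412153-101412432 (plus strand), Krt8 at chr15:102004313-102004592 (minus strand) and Krt18 at chr15:102027966-102028245 (plus strand).
Krt7: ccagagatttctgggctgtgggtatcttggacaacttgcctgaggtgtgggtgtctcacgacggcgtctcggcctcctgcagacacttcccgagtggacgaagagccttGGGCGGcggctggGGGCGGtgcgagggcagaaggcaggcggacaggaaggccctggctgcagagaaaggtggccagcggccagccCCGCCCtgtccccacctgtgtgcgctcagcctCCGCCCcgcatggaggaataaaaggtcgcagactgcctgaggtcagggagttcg
Krt8: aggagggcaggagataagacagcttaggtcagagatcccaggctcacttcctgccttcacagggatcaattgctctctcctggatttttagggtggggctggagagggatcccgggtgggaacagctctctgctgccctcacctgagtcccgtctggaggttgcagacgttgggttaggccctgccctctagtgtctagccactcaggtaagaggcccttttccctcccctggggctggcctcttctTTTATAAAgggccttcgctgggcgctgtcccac
Krt18: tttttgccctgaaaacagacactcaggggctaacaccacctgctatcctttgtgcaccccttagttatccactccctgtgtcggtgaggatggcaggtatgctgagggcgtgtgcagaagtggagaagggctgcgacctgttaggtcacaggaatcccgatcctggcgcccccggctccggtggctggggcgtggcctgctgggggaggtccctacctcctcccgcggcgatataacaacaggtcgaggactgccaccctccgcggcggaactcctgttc
The GC box matched at 4 places in Krt7. The letters of the TATA box matched in Krt8 at overlapping positions on the 2 strands, 248 and 250 of the window. That stretch lies across the annotated start, and whether it acts as a TATA box was not tested. Of 32851 promoters of this length 34.7% held the GC box and 13.1% the TATA box. TGGGTGGTC, the letters of the Gli consensus through which hedgehog signals act, was in none of the windows of the 7 keratins in the table (Krt5, Krt7, Krt8, Krt13, Krt14, Krt18 and Krt23) and in 0.240% of all promoters. TGANTCA, the AP-1 site, was in 7.46% of all promoters and, of these keratins, in Krt13. A match describes the letters of the window and does not show binding.

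In SmoM2 stomachs 3 of the 5 simple keratins passed the test, all of them lower, and 0 of the 5 stratified keratins passed. Krt18, Krt8 and Krt7 fell 1.48-fold, 1.46-fold and 1.32-fold. That is 3 of the 10 keratins past the threshold, where 0.983% of all genes passed. It is 3 of 5 simple keratins lower and 0 higher, where 0.657% of all 19938 genes were lower and 0.326% higher in the same limma fit (adjusted p under 0.05 over all genes). Krt19 was lower in each SmoM2 array than in each wild type array and did not pass. Krt23 and the 5 stratified keratins read at the level of keratins of the hair follicle, and their groups overlapped.

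Krt18, the type I partner of Krt8, had log2 signals of 10.61, 10.87 and 10.70 in SmoM2 1, 2 and 3, against 11.30, 11.33 and 11.25 in wild type 1, 2 and 3. The groups did not overlap, and the highest SmoM2 value was that of SmoM2 2. The log2 change (SmoM2 minus wild type) was -0.57 (SE 0.08, 95% interval -0.75 to -0.38, limma adjusted p = 0.0168). Krt8, the type II keratin of simple epithelia, had 11.20, 11.20 and 11.32 in SmoM2, against 11.91, 11.62 and 11.84 in wild type. Here the groups were again apart, and wild type 2 was the lowest of its group. Its log2 change was -0.55 (SE 0.09, 95% interval -0.75 to -0.35, adjusted p = 0.0241).

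Krt7, a type II keratin of ducts, of some simple epithelia and of mesothelium, had 9.46, 9.50 and 9.52 in SmoM2, against 9.84, 9.90 and 9.94 in wild type. Its SDs were 0.03 in SmoM2 and 0.05 in wild type, and the groups did not overlap. Its log2 change was -0.40 (SE 0.07, 95% interval -0.55 to -0.25, adjusted p = 0.0250). Krt19, the smallest keratin and a type I partner of Krt8, had 9.36, 9.39 and 9.56 in SmoM2, against 9.67, 9.58 and 9.83 in wild type. SmoM2 3 and wild type 2 nearly met, at 9.56 and 9.58. The log2 change was -0.26 (SE 0.09, 95% interval -0.45 to -0.06), which did not pass after adjustment over all genes (adjusted p = 0.302, unadjusted p = 0.0163). Over all genes the SmoM2 values lay wholly below the wild type values in 10.1%, and for the simple keratins in 4 of 5.

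**Figure D1:**
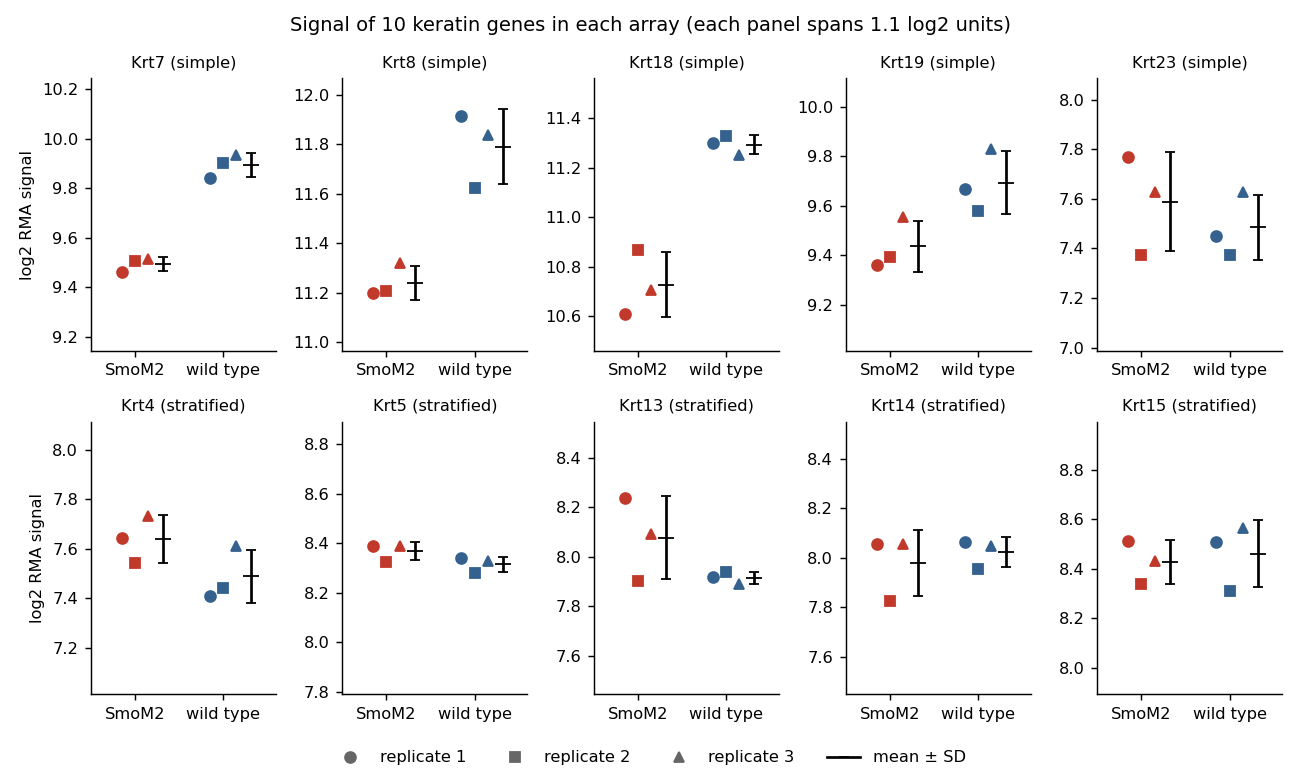
Log2 RMA signal (vertical axis) of the 10 keratins in each of the 3 SmoM2 and 3 wild type arrays, with symbols for replicates and bars for mean ± SD. Krt7, Krt8, Krt18 and Krt19 have all SmoM2 points under all wild type points, and the other panels overlap.

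Without SmoM2 3 or wild type 1, 0 of the 3 keratins passed. Krt18 then had an adjusted p of 0.0989 and 0.0932, Krt8 of 0.0950 and 0.131, and Krt7 of 0.138 and 0.114. Without SmoM2 1, Krt18 passed (adjusted p = 0.0461), while Krt8 and Krt7 did not (adjusted p = 0.0852 and 0.0712). Without wild type 2, Krt8 passed (adjusted p = 0.0271), while Krt18 and Krt7 did not (adjusted p = 0.0745 and 0.102). Without wild type 3, Krt18 and Krt8 passed and Krt7 had an adjusted p of 0.0630. The sizes moved little in these fits, from -0.64 to -0.51 for Krt18, from -0.63 to -0.49 for Krt8 and from -0.43 to -0.38 for Krt7. With the Y-linked level as a covariate the changes were -0.52, -0.51 and -0.43, with adjusted p of 0.279, 0.357 and 0.305.

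Within each set of arrays the sign of the difference was fixed beforehand. No SmoM2 value of Krt18, Krt8, Krt7 or Krt19 reached the lowest wild type value, so only the sizes are informative. In the set of SmoM2 2 with wild type 1 and 2, the log2 difference was -0.45 for Krt18, -0.56 for Krt8, -0.37 for Krt7 and -0.23 for Krt19. In the set of SmoM2 1 and 3 with wild type 3 it was -0.59, -0.58, -0.45 and -0.37 for the same genes. With the set as a term in the fit, a choice made after seeing the data, Krt18, Krt8 and Krt7 passed (adjusted p = 0.00732, 0.0127 and 0.0159) and Krt19 did not (adjusted p = 0.110).

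**Figure D2:**
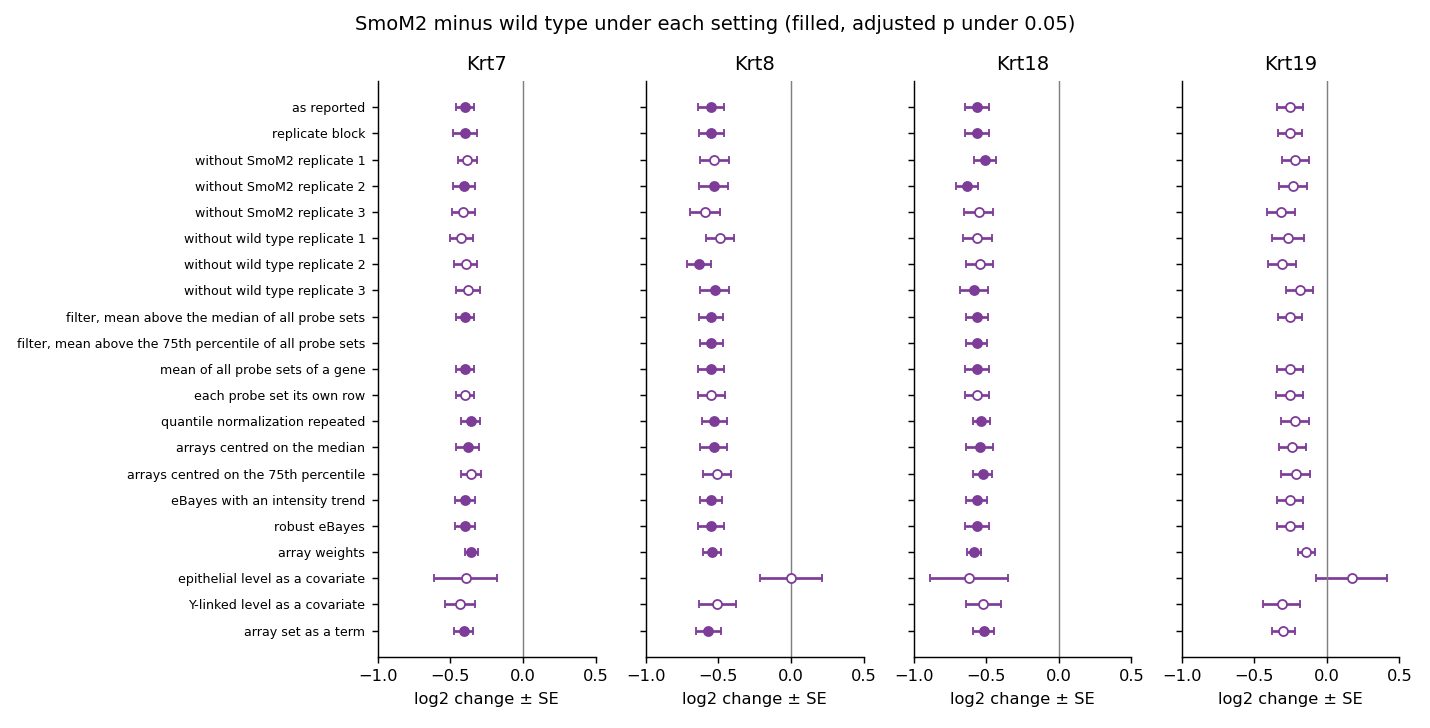
Log2 change, SmoM2 minus wild type, ± SE (horizontal axis) of 4 simple keratins under the reported fit and each alternative (rows), filled where the adjusted p is under 0.05. Krt7, Krt8 and Krt18 stay between -0.64 and -0.36 except with the epithelial level as a covariate, where Krt8 is at -0.00270, and Krt19 passes in no row.

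The partners Krt8 and Krt18 changed by nearly the same amount. Each gene was set to its own mean over the 6 arrays and Krt18 was subtracted from Krt8. The result averaged 0.01 ± 0.15 in SmoM2 and -0.01 ± 0.18 in wild type (log2, SD, n = 3 each). It was lowest in SmoM2 2 and wild type 2, at -0.17 and -0.21, and between 0.08 and 0.11 in the other 4 arrays. Krt8 less Krt19, in contrast, was at -0.12, -0.14 and -0.19 in SmoM2 1, 2 and 3, against 0.29, 0.09 and 0.06 in wild type 1, 2 and 3, so Krt8 was lower relative to Krt19 in each SmoM2 array. Krt18 less Krt19 and Krt7 less Krt19 differed by -0.31 and -0.14 (SmoM2 minus wild type), and their groups overlapped. These are descriptions of chosen pairs, with no test. Krt19 read dimmer than Krt8 and Krt18 (means over all arrays 9.56, 11.52 and 11.01), and RMA compresses small signals. The part of that compression in the differences from Krt19 was not tested.

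Krt23, a type I keratin found in some simple epithelia, had 7.77, 7.37 and 7.63 in SmoM2, against 7.45, 7.37 and 7.63 in wild type. SmoM2 2 and 3 equalled wild type 2 and 3 to within 0.01, and SmoM2 1 was the highest. Its log2 change was 0.10 (95% interval -0.14 to 0.35, adjusted p = 0.825).

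The basal keratins of stratified epithelium, Krt5, Krt14 and Krt15, were the most alike between the groups. Krt5, the type II keratin of the basal layer, had 8.39, 8.33 and 8.39 in SmoM2, against 8.34, 8.28 and 8.33 in wild type, with a log2 change of 0.05 (95% interval -0.09 to 0.20, adjusted p = 0.855). Krt14, its main type I partner, had 8.06, 7.82 and 8.05 in SmoM2, against 8.06, 7.95 and 8.05 in wild type, with a log2 change of -0.04 (95% interval -0.23 to 0.14, adjusted p = 0.923). Krt15, another basal type I keratin, had 8.51, 8.34 and 8.43 in SmoM2, against 8.51, 8.31 and 8.57 in wild type, with a log2 change of -0.03 (95% interval -0.23 to 0.16, adjusted p = 0.945). SmoM2 2 and wild type 2 were the lowest arrays of their groups for these genes. The sign of the change was not stable for Krt14 and Krt15, which turned positive in some of the alternatives.

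The keratins of the upper layers, Krt4 and Krt13, had the largest positive differences of the 10. Krt4, the type II member of this pair, had 7.64, 7.54 and 7.73 in SmoM2, against 7.41, 7.44 and 7.61 in wild type. Wild type 3 lay above SmoM2 2, so the groups overlapped, and the log2 change was 0.15 (95% interval -0.03 to 0.34, adjusted p = 0.601). Krt13, its type I partner, had 8.24, 7.90 and 8.09 in SmoM2, against 7.92, 7.94 and 7.89 in wild type. SmoM2 2 lay among the wild type arrays, and the log2 change was 0.16 (95% interval -0.04 to 0.36, adjusted p = 0.606). At an unadjusted p under 0.05, 0 of the 5 stratified keratins and 4 of the 5 simple keratins passed in limma, where 10.5% of all genes did (2098 of 19938). With array weights, which could not be fully fitted and called 4110 of all genes, Krt4 and Krt13 passed (adjusted p = 0.0114 and 0.0498). The intervals leave room for a rise of up to 0.36 and for a fall of up to 0.23 among the stratified keratins, so they do not show that these genes were equal between the groups.

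**Figure D3:**
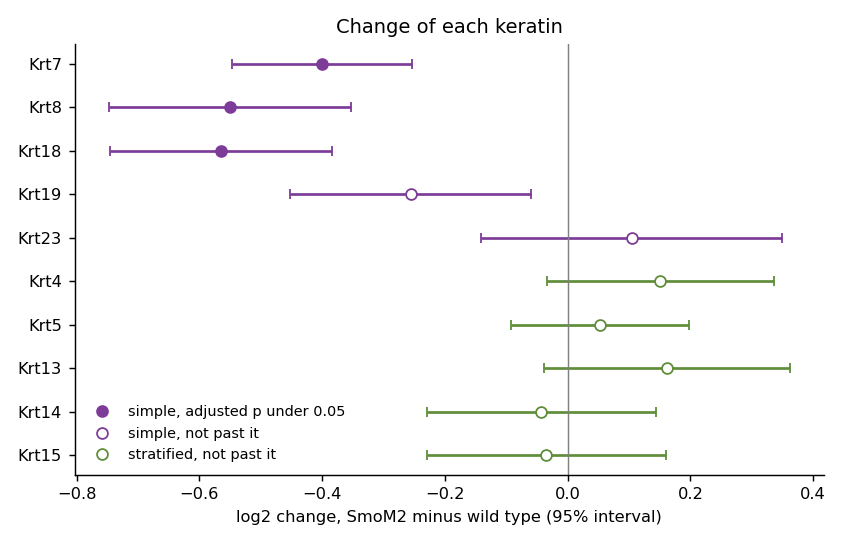
Log2 change, SmoM2 minus wild type, with its 95% interval (horizontal axis) for each of the 10 keratins. The intervals of Krt7, Krt8, Krt18 and Krt19 lie below 0, and those of Krt23 and of the 5 stratified keratins span 0.

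The level at which a probe set reads without much transcript was judged from 21 keratins of the hair follicle, a set chosen after the values were seen, since the embryonic stomach is not known to make them. Their means over the 6 arrays ran from 6.81 to 9.49 (log2 signal). The 5 stratified keratins and Krt23, from 7.54 to 8.44, lay within this range. Krt19 and Krt7, at 9.56 and 9.69, lay just above it, and Krt18 and Krt8, at 11.01 and 11.52, lay well above it. Probe sets differ in brightness, so this places a probe set against a background and does not rank the amounts of the transcripts.

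The hair follicle keratins also show how much dim probe sets moved between arrays. Taken relative to each gene's mean, they averaged 0.18, -0.10 and 0.06 in SmoM2 1, 2 and 3, against -0.05, -0.15 and 0.07 in wild type 1, 2 and 3. Of the 21 genes 20 had a positive change, with a median of 0.09, and 0 passed in limma (0 also at an unadjusted p under 0.05). The stratified keratins averaged 0.10, -0.08 and 0.07 in SmoM2, against -0.02, -0.08 and 0.02 in wild type, with SmoM2 1 high and the 2 arrays numbered 2 low in both sets. Relative to the hair follicle keratins of the same array, Krt4 and Krt13 differed by 0.06 and 0.07 between the groups, Krt5 by -0.04 and Krt14 by -0.13, all with overlapping groups. Krt15 differed by -0.12, with each SmoM2 array below each wild type array. Whether these levels hold any keratin signal from stratified cells was not tested.

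Over the whole family of 52 keratin genes, Krt7, Krt8 and Krt18 were the ones that passed. Of the 42 keratins outside the 10, 0 passed in limma, 0 had an unadjusted p under 0.05, and 36 had a positive change (median 0.08, range -0.10 to 0.23), where 49.2% of all genes had a change below 0 and the median over all genes was 0.00. The largest differences were 0.23 for Krt26 of the hair follicle (adjusted p = 0.602), 0.16 for Krt12 of the cornea (adjusted p = 0.770) and 0.16 for Krt77 of the skin (adjusted p = 0.614). The lowest of the 42 was Krt20, at -0.10 (limma adjusted p = 0.785). It averaged 8.22 in SmoM2 and 8.33 in wild type, and its groups overlapped. Krt17, a keratin of basal and wounded skin, had each SmoM2 array above each wild type array (log2 change 0.16, adjusted p = 0.497), as did Krt222 (0.14). That is 2 of 42, where 5.64% of all genes lay this way.

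**Figure D4:**
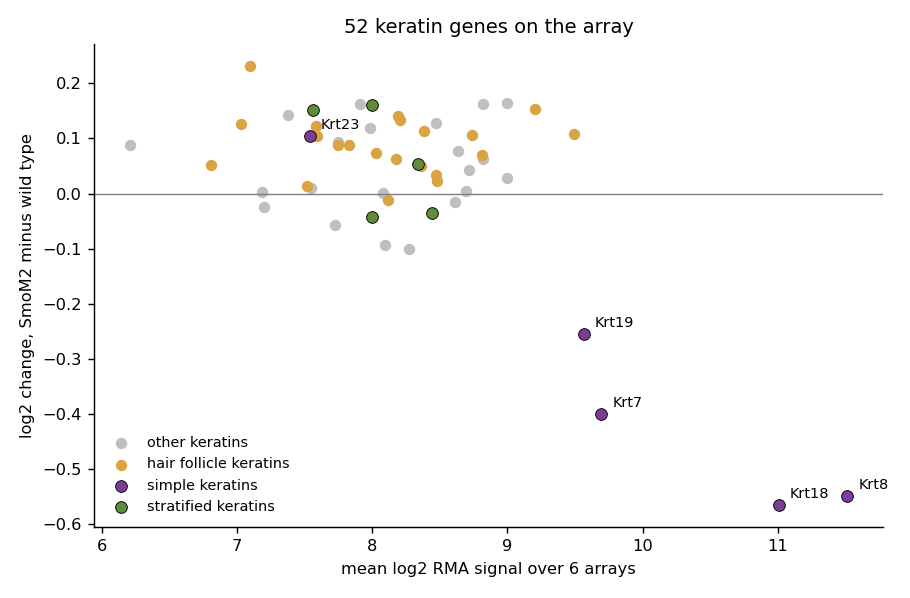
Mean log2 RMA signal over the 6 arrays (horizontal axis) against the log2 change, SmoM2 minus wild type (vertical axis), for 52 keratin genes. Krt7, Krt8, Krt18 and Krt19 lie to the right and below the rest, and the stratified keratins lie among the hair follicle keratins.

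The simple and the stratified keratins were also set against each other within each array, as a description. The mean of the 5 simple keratins less that of the 5 stratified keratins, each gene relative to its own mean, was -0.28, -0.11 and -0.19 in SmoM2 1, 2 and 3, against 0.19, 0.18 and 0.21 in wild type 1, 2 and 3. SmoM2 2 was the SmoM2 array closest to wild type. Krt23 enters the simple mean here although its change was positive, and Krt19 although it did not pass. The difference between the groups was -0.39 (log2), and without Krt23 it was -0.50. The median change was -0.40 over the simple keratins and 0.05 over the stratified keratins, beside 0.00 over all genes. No p is given, since the members were chosen with results known and since the stratified members sat at the level of dim probe sets.

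Other epithelial transcripts were lower as well. In a list of 25 measured genes of epithelium in general, without keratins, 9 fell, 0 rose and 16 did not pass, with a median change of -0.33. A change below 0 was found in 24 of the 25, where 49.2% of all genes had one. SmoM2 values lay wholly below wild type values in 18 (10.1% of all genes). An unadjusted p under 0.05 in limma was reached by 18 (10.5% of all genes). Over all genes, the background for this list and for the lists below, 0.657% were lower and 0.326% higher in the same fit. Esrp1, an epithelial splicing factor, had 9.10, 9.45 and 9.51 in SmoM2, against 10.15, 10.01 and 9.96 in wild type (log2 change -0.68, adjusted p = 0.0245). The tight junction gene Cldn6 changed by -0.66, Cdh1, which encodes E-cadherin, by -0.58, and Ap1m2, a sorting adaptor of epithelial cells, by -0.56 (adjusted p = 0.0121, 0.0111 and 0.0176). The changes of the 9 genes ran from -0.68 to -0.39, and those of Krt7, Krt8 and Krt18 lay within that range. All of these genes passed the same threshold, which leaves out small changes, so a shared range says little. The mean level of the list was between 9.18 and 9.25 in SmoM2 arrays and between 9.43 and 9.58 in wild type arrays.

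Set against the epithelial list of the same array, the simple keratins did not all move alike. Krt8 was at -0.13, -0.15 and -0.08 in SmoM2 1, 2 and 3, against 0.18, 0.05 and 0.12 in wild type 1, 2 and 3. Krt8 was thus lower in SmoM2 also relative to the mean of the list. That mean includes 16 genes that did not pass. The 9 genes of the list that fell changed by -0.68 to -0.39, a range that holds Krt8 (-0.55). They were picked by the same threshold that Krt8 passed, so that range does not stand for the list, whose median was -0.33. Krt18 was at -0.21, 0.02 and -0.19 in SmoM2, against 0.07, 0.26 and 0.04 in wild type. Its groups were also apart, with SmoM2 2 close to wild type 3. The difference between the groups was -0.25 for Krt18 and -0.23 for Krt8. Krt7 and Krt19 overlapped between the groups on this scale, with differences of -0.08 and 0.06. With the epithelial level as a covariate in limma, Krt18 was at -0.62 (SE 0.27), Krt7 at -0.40 (SE 0.22), Krt8 at -0.00270 (SE 0.21) and Krt19 at 0.17 (SE 0.25), and 0 of all genes passed (536 at an unadjusted p under 0.05). The epithelial levels of the groups did not overlap, so in that fit group and epithelial level can hardly be told apart.

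**Figure D5:**
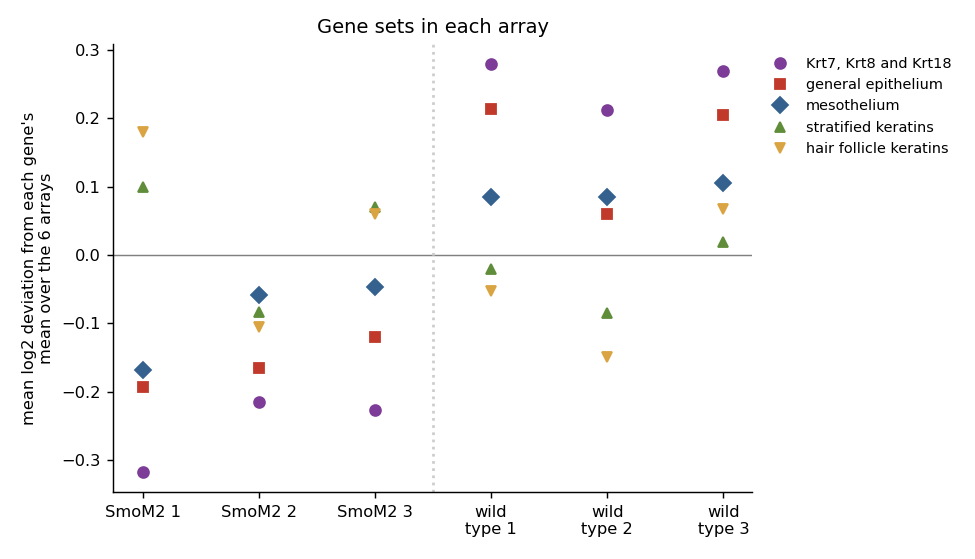
Mean log2 deviation from each gene's mean over the 6 arrays (vertical axis) for 5 gene sets in each array (horizontal axis). Krt7, Krt8 and Krt18, the general epithelium and the mesothelium lie lower in each SmoM2 array than in each wild type array, while the stratified keratins and the hair follicle keratins do not.

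The proteins that anchor keratin filaments were mostly not past the threshold. Of 14 plakins, desmosomal genes and keratin-binding genes 1 fell, 0 rose and 13 did not pass (median -0.09). SmoM2 values lay wholly below wild type values in 8 of the 14, where 10.1% of all genes did. A negative change was found in 10 and a positive change in 4. In limma 6 had an unadjusted p under 0.05 (10.5% of all genes). The member that fell was Dsp, desmoplakin, which ties keratin filaments to desmosomes, with 9.51, 9.71 and 9.60 in SmoM2, against 10.22, 10.41 and 10.18 in wild type (log2 change -0.67, adjusted p = 0.0111). Dsc2, a desmosomal cadherin, was at -0.51 (adjusted p = 0.0532). The list averaged between 8.97 and 9.02 in SmoM2 and between 9.15 and 9.21 in wild type.

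Genes of stratified epithelium other than keratins mostly did not pass. Of 26 measured members 1 fell, 0 rose and 25 did not pass, with a median of 0.05. The member that fell, Bnc1 (log2 change -0.72, adjusted p = 0.0158), is a zinc finger gene of basal keratinocytes and also of mesothelium. Lor, a protein of the cornified envelope, was at -0.54 (adjusted p = 0.0617), and Trp63, the master regulator of stratified epithelium, at 0.08 (adjusted p = 0.772). The list averaged between 8.47 and 8.61 in SmoM2 and between 8.53 and 8.68 in wild type, so the groups overlapped. Among genes of glandular stomach, 2 of 21 fell and 0 rose (median -0.07): Cym, the milk-clotting protease chymosin (-0.81, adjusted p = 0.00373), and Gata6, an endodermal regulator (-0.57, adjusted p = 0.0241). That list averaged between 8.61 and 8.73 in SmoM2 and between 8.75 and 8.90 in wild type.

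Mesothelium makes Krt7, Krt8, Krt18 and Krt19 too, and part of its genes were lower. Of 16 measured markers 3 fell, 0 rose and 13 did not pass (median -0.19). Igfbp5, a growth factor binding protein, was at -0.78, Bnc1 at -0.72 and the mesothelial regulator Wt1 at -0.52 (adjusted p = 0.00549, 0.0158 and 0.0201). Upk3b, a uroplakin of mesothelium, was at -0.17 (adjusted p = 0.541) and Msln, mesothelin, at 0.08 (adjusted p = 0.897). The list averaged between 9.68 and 9.80 in SmoM2 and between 9.93 and 9.96 in wild type. The share of epithelium and of mesothelium in the difference of the simple keratins was not tested.

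Intermediate filaments of other cells were mixed. Of 14 such genes 3 fell and 0 rose (median -0.03): the neurofilament genes Nefm (-1.01, adjusted p = 0.00244) and Nefl (-0.84, adjusted p = 0.0286), and Des, the filament of muscle (-0.54, adjusted p = 0.0263). Vim, the filament of mesenchyme, was at -0.07 (adjusted p = 0.793). In smooth muscle 5 of 16 genes rose and 1, again Des, fell (median 0.22), with Myocd, the coactivator of smooth muscle genes, at 0.86, Actg2 at 0.69, Myl9 at 0.61 and Synpo2 at 0.59 (adjusted p between 0.00111 and 0.0405). The smooth muscle list averaged between 10.61 and 10.75 in SmoM2 and between 10.37 and 10.42 in wild type. The part of these other cell types in the keratin differences was not tested.

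Of the remaining cell types, enteric neurons and pancreas had markers that passed. Of 13 genes of enteric neurons 2 fell, the microtubule gene Dcx (-1.07) and the glial gene Fabp7 (-0.71). Of 8 pancreas genes 2 fell, Cpa1 (-0.98) and Gcg (-0.86). The adjusted p of these genes lay between 0.00660 and 0.0258. The median change was -0.09 over the enteric neuron genes, of which 9 were negative and 4 positive. Over the pancreas genes it was 0.01, with 4 negative and 4 positive. In limma 0 of 9 erythroid genes, 0 of 13 leukocyte genes, 0 of 14 endothelial genes, 0 of 9 liver genes and 0 of 10 skeletal muscle genes passed, with 4, 8, 6, 4 and 2 of them at an unadjusted p under 0.05 (10.5% of all genes) and medians of -0.15, -0.19, -0.15, 0.03 and 0.13. The leukocyte list averaged between 8.66 and 8.75 in SmoM2 arrays and between 8.87 and 8.96 in wild type arrays, the endothelial list between 10.16 and 10.31 in SmoM2 and between 10.37 and 10.45 in wild type, and the erythroid list between 10.59 and 10.75 in SmoM2 and between 10.78 and 10.91 in wild type. In these 3 lists each SmoM2 array was thus below each wild type array, as it was for epithelium and mesothelium. Single genes lay wholly below in 8 of 13 leukocyte, 8 of 14 endothelial and 3 of 9 erythroid cases, where 10.1% of all genes did. The enteric neuron list, between 9.70 and 9.87 in SmoM2 and between 9.90 and 10.06 in wild type, and the pancreas list, between 8.72 and 8.85 in SmoM2 and between 8.92 and 9.11 in wild type, were also apart, while the liver and skeletal muscle lists overlapped. The part of these lists in the keratin differences was not tested. The largest differences in these lists were -0.38 for the embryonic globin Hbb-bh1 and -0.37 for Alas2 of haem synthesis, -0.48 for the platelet factor Pf4 and -0.39 for the lysozyme Lyz2. In endothelium they were -0.36 for the VEGF receptor Kdr and -0.34 for Stab1, in liver -0.63 for Ambp and 0.61 for the albumin gene Alb, and in skeletal muscle 0.41 for Acta1 and 0.28 for Actc1, both actins.

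The genes whose levels were most like the mean of the 5 simple keratins were sought among 11432 named genes. Over the 6 arrays these were Slc18a3, the vesicular acetylcholine transporter, Tcerg1l, Tmprss2, a serine protease of epithelial surfaces, Tmem86a and Zfp664, with Pearson r from 0.985 to 0.990. Of these Tmprss2 and Tcerg1l fell (log2 changes -0.39 and -0.38, adjusted p = 0.0386 and 0.0322). After each group's mean was taken away, the highest r were those of Ramp2, Hikeshi, H6pd, Trim65 and Cwc25, from 0.986 to 0.996, and none of these passed in limma (adjusted p between 0.592 and 0.952). These r were the highest among many genes over 6 arrays of 2 groups and are given as a description.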

How the data were processed

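RNA of embryonic stomach was measured in 6 samples, 3 SmoM2 and 3 wild type, with 1 array for each sample. Total RNA was extracted with Trizol and 6 ug of it labelled with biotin, per the labels' protocols. The deposited values are log2 signals of 35556 probe sets made by the authors with RMA (background correction, quantile normalization, probe summary) and affy, per the submitters' processing notes. No version of either is recorded there. RMA compresses small signals and hides a change in total RNA. The number of arrays limits the precision.

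Genes were named from the platform annotation. It lists 23410 of the probe sets, 21789 with 1 symbol and 1621 with several, and those it does not list are unnamed here. Each of 19938 genes was represented by its brightest probe set over the 6 arrays. Groups were compared with limma 3.58.1 in R 4.3.3 (lmFit, eBayes), with Benjamini-Hochberg adjustment over all genes and a threshold of 0.05. An exact two-sided permutation test of 3 against 3 cannot go below 0.1 and was not used. The script was tested on simulated data.

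The members and the lists were chosen with earlier results of these data known, and the hair follicle keratins and the array sets after the values were seen. The text names all 10 keratins. Of other keratins it names those past the threshold, or else the 3 with the largest change. From each list come at most 4 called members, ranked by size of change, or the 2 that moved most where fewer than 2 were called. It also names the 5 most similar genes by each measure. Krt17, Krt20, Krt222, Trp63, Upk3b, Msln and Vim were named after their values were seen. Alternatives were a replicate block, each array left out, filters on dim probe sets, other summaries of probe sets, repeated normalization, centring, variance models, array weights and covariates. Same-numbered arrays had correlated deviations of -0.10, 0.52 and 0.06, against -0.60 to 0.52 for the other pairs. With 3 arrays in each group these values cannot decide whether the numbers pair the arrays.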

Additional observations from a re-analysis of the deposited data

How the results depend on the processing

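Krt7, Krt8 and Krt18 had a negative change in each alternative that measured them (19, 20 and 20), and passed in 10, 13 and 14. Most of these alternatives could not turn the sign. The replicate block, the filters, the summaries of probe sets and the variance models left the size of the change as it was. With groups that did not overlap, leaving out an array could not turn the sign either. The 3 calls were lost with each probe set as its own row (5 genes called in all), with the epithelial level as a covariate (0 genes called) and with the Y-linked level as a covariate (22), where 0 simple keratins passed. With arrays centred on the 75th percentile 1 of them passed (120 genes). Leaving out an array gave 0 to 3 simple keratins and 32 to 247 genes, against 196 with all arrays. The count of genes was 698 with the replicate block, 336 with an intensity trend, 4110 with array weights and 324 with the array set as a term, and the 3 simple keratins passed in each of these. The replicate block changed no call among the 10 keratins. Array weights added 2 stratified keratins, and in the other settings 0 passed. The simple less stratified difference of -0.39 lay between -0.43 and -0.35 without single arrays and was -0.31 with the epithelial covariate. With that covariate the median change was -0.00270 over the simple keratins, against -0.40 in the reported fit, and 0.17 over the stratified keratins, against 0.05. Changes that turned sign were not past the threshold. With the epithelial covariate Krt19 was at 0.17, Krt14 at 0.17 and Krt15 at 0.33; with the Y-linked covariate Krt23 was at -0.0274; centred on the 75th percentile Krt15 was at 0.00482. Without single arrays Krt14 ran from -0.0820 to 0.0339 and Krt15 from -0.110 to 0.0178. The causes were not tested. Filters on dim probe sets removed the stratified keratins and Krt23, so they gave no value there, and the filter at the 75th percentile also removed Krt7 and Krt19. Signals near the level of the hair follicle keratins limit what can be seen of Krt23 and the stratified keratins.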
